A study of Homo sapiens with 6 samples.

Results

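The RCC1-RAN nuclear transport axis was followed in U87 cells through 10 genes: RCC1, RCC2, RAN, RANBP1, RANGAP1, KPNA2, KPNB1, NUTF2, XPO1 and CSE1L. They were listed by name, as RCC1 (which the choice rule calls a known PRMT6 substrate in glioblastoma), the GTPase RAN, regulators of RAN, and transport receptors. The choice was made with earlier results of these data known. All 10 were found among the 60612 genes of the deposited table, and all 10 were among the 18106 genes left by the filter on low counts. U87 cells are an established line from a human glioblastoma, and their total RNA was sequenced in 3 libraries from cells given a scramble shRNA (NC) and in 3 libraries from cells given an shRNA against PRMT6 (shPRMT6), an arginine methyltransferase. Both groups were grown in DMEM with fetal bovine serum, and both received lentivirus, polybrene and an shRNA. The labels number the shPRMT6 libraries shRNA-1 to shRNA-3 without saying whether these were 1 shRNA or several, the methods call the samples independent replicates, and the comparison covers 1 cell line.

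RAN is a small GTPase that moves cargo across the nuclear pore. RCC1, bound to chromatin, loads RAN with GTP inside the nucleus, while RANGAP1 with RANBP1 stimulates GTP hydrolysis in the cytoplasm, and NUTF2 carries RAN-GDP back into the nucleus. Importins release cargo when they meet RAN-GTP, exportins bind cargo together with RAN-GTP, and in mitosis the same gradient frees spindle assembly factors from importins near chromosomes.

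Stretches of promoter are shown for the RAN cycle genes because RCC1 and KPNA2 were lower after PRMT6 knockdown and XPO1 and CSE1L did not pass the test, and because 3 groups of letters known from cell cycle promoters could be looked up in them. The letters were searched on both strands from 250 bases before to 50 bases after each RefSeq start (GRCh38.p14), for 8 of the 10 genes. They were TTTGAA or TTTAAA (the cell cycle genes homology region, CHR), CCAAT (bound by NF-Y), and TTTGGCGC, TTTCCCGC, TTTGGCGG or TTTCGCGC (E2F), and no group's letters contain those of another. On each line only the match named there is in capitals, and the line is written 5′ to 3′ along the strand of its gene. The KPNA2 CCAAT line that starts at 68035634 also holds CHR letters of the other strand (ttcaaa), left in lower case.
RCC1, CHR letters, chr1:28506001-28506030, plus strand: cacttcgtaaggTTTAAAaaggatgcttcg
KPNA2, CHR letters, chr17:68035693-68035722, plus strand: gtcaccgggaaaTTTAAAtcgcgccggccg
KPNA2, CCAAT, chr17:68035634-68035663, plus strand: ttttcaaatccaCCAATgggcacacagctt
KPNA2, CCAAT, chr17:68035665-68035694, plus strand: ggctcgaaccagCCAATcggaatgcggagt
XPO1, CCAAT, chr2:61538414-61538443, minus strand: ctggcgctcgggCCAATgagagataggctc
CSE1L, CCAAT on the other strand, chr20:49046207-49046236, plus strand: agcggggccccgATTGGcccttcgaacttg
The TTTAAA of RCC1 (in 1 of its 2 windows) and the TTTAAA of KPNA2 both began at position -30 from the RefSeq start. Both stretches lie inside the genes as annotated by GENCODE, which start at 28505943 (RCC1) and 68035519 (KPNA2). The position therefore holds only for the RefSeq starts used. KPNA2 held further CHR letters at -99 and 32, and not every match is printed above. CHR letters were also found in RAN (at -3), RANGAP1 (at -29, in 1 of its 2 windows) and CSE1L (at 20). RAN, RANGAP1 and CSE1L did not pass the test in shPRMT6, and 24.0% of all 35116 promoter windows held CHR letters. CCAAT was found in KPNA2, XPO1 and CSE1L and in 34.6% of all windows. The E2F letters were in none of the 8 genes and in 3.35% of all windows. The matches are a description of letters and do not show that a factor was bound.

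The libraries held 56388161 to 75887696 counts in NC and 61805330 to 67630740 in shPRMT6, and no library was a duplicate of another (within groups, chi-square divided by its degrees of freedom was 48.2 to 78.4). PRMT6 itself was 8.17 ± 1.08 CPM (counts scaled to library size, with TMM factors) in NC and 4.46 ± 0.844 CPM in shPRMT6 (SD, n = 3), so 54.7% of its RNA remained (log2 fold change -0.87, Benjamini-Hochberg adjusted p = 0.0225 in the quasi-likelihood test of edgeR). That adjusted p rose to 0.0613 when NC replicate 1 was left out, to 0.0588 when shPRMT6 replicate 1 was, and to 0.0713 when shPRMT6 replicate 2 was. Of the glioma markers VIM, CD44 and NES were abundant (at least 38.0 CPM in every library), OLIG2 was low (2.13 to 3.23 CPM), and the defining markers SOX2 (0 in 2 libraries) and GFAP stayed under 1 CPM. Summed over the 6 glioma markers, the level was 7816 to 9043 CPM in NC and 7727 to 8460 CPM in shPRMT6. Most of this was VIM (7068 to 8357 CPM over all libraries). Summed over 10 markers of other cell types it was 11.5 to 15.5 and 13.8 to 15.4 CPM. Among these, SYT1 (5.26 to 8.83 CPM) and PECAM1 (2.57 to 5.21 CPM) were in every library, and CD3E was at 0 in all 6. PECAM1 was higher in every shPRMT6 library without passing (adjusted p = 0.0544), and CDH1, under 1 CPM, was called lower (0.0428, both edgeR).

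After PRMT6 knockdown 3 of the 10 RAN cycle genes had lower RNA and none had higher RNA at an adjusted p under 0.05 in edgeR's quasi-likelihood test. RCC1, the exchange factor, fell to 46.7% of the NC level, RANBP1, the co-activator of hydrolysis, to 70.9%, and KPNA2, an importin alpha, to 69.2%. RAN itself and its main import and export partners KPNB1, CSE1L and XPO1 did not pass the test. Among all genes tested, 9.06% were called lower and 9.51% higher. The median log2 fold change of the 10 genes was -0.18, against -0.01 over all genes tested, and 7 of the 10 were below 0. In 5 genes (RCC1, RCC2, RANBP1, KPNA2 and XPO1) every shPRMT6 library lay below every NC library, against 19.9% of all genes. These same 5 had an unadjusted p under 0.05. By exact permutation, two-sided, such a separation has p = 0.1, and 3 libraries against 3 cannot give a smaller p.

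**Figure D1:**
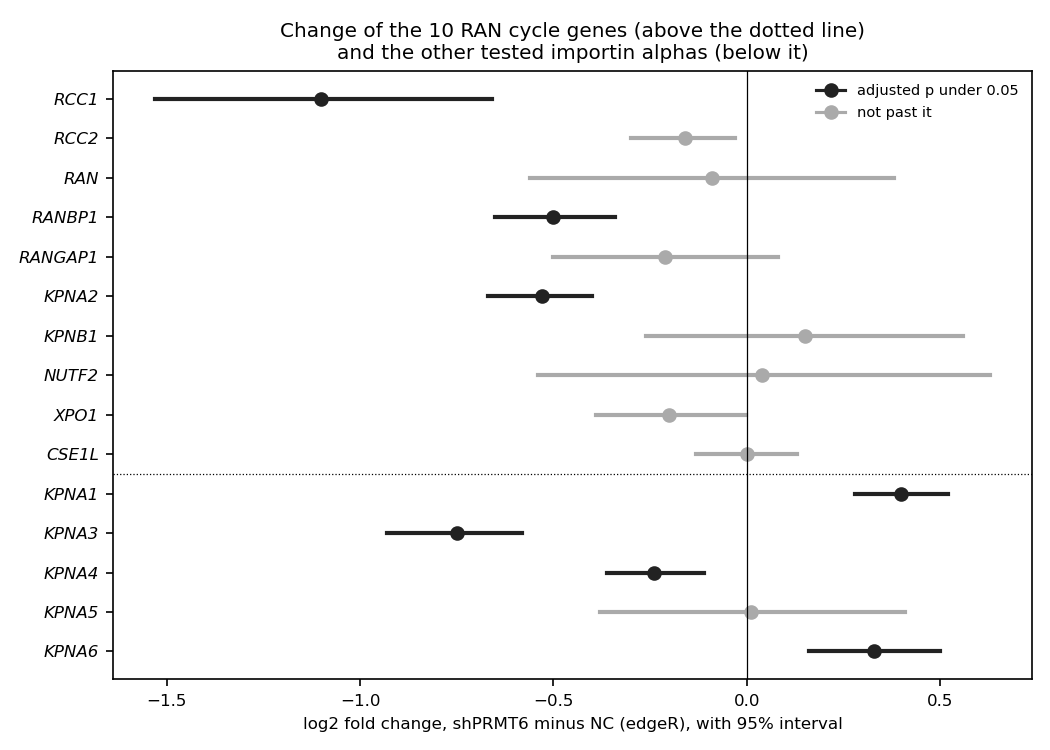
Log2 fold change (x axis, shPRMT6 minus NC) of the 10 RAN cycle genes and, under the dotted line, of the other 5 tested importin alphas, with points for edgeR's estimate and bars for its 95% interval. RCC1, RANBP1 and KPNA2 lie below 0 in black, the other 7 RAN cycle genes are grey, and the importin alphas lie on both sides of 0.

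RCC1 (ENSG00000180198, chr1:28505943-28539300, plus strand, GRCh38) had the largest change of the 10. Its level was 81.9, 105 and 63.0 CPM in NC replicates 1, 2 and 3 and 39.4, 36.4 and 41.0 CPM in shPRMT6 replicates 1, 2 and 3. The groups did not overlap, the NC libraries were spread widely with replicate 2 the highest, and the shPRMT6 libraries lay close together. RCC1 was thus 83.4 ± 21.3 CPM in NC and 39.0 ± 2.33 CPM in shPRMT6 (SD, n = 3). Its log2 fold change was -1.10 (SE 0.182, 95% interval -1.53 to -0.66, adjusted p = 0.00919 by edgeR's quasi-likelihood test). RCC1 alone among the 10 passed the threshold of the methods, read as an absolute log2 fold change above 1 with an unadjusted p under 0.05, which 2.63% of all genes tested passed in the lower direction. Without NC replicate 2 the log2 fold change was -0.90, so that no RAN cycle gene passed that threshold, while the adjusted p was 0.0113 in the same edgeR test.

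Of the exon bases of RCC1, 6.22% are shared on the same strand with SNHG3, a snoRNA host gene that starts at the same place, so a small part of its reads cannot be assigned. SNHG3, chosen after its values were seen, was 31.4 ± 1.53 CPM in NC and 23.1 ± 3.93 CPM in shPRMT6 (SD, n = 3). Its log2 fold change of -0.44 was smaller than that of RCC1 and did not pass (adjusted p = 0.0668 in edgeR's test).
RCC2 is related to RCC1 in sequence and belongs to the chromosomal passenger machinery of mitosis and to cell adhesion signaling, and it is not the exchange factor of RAN. RCC2 (chr1:17406760-17439724, minus strand) was 80.8, 80.9 and 81.8 CPM in NC and 71.2, 71.2 and 75.3 CPM in shPRMT6. All shPRMT6 libraries were lower, by a small amount, and the log2 fold change of -0.16 (SE 0.0565, 95% interval -0.30 to -0.03) had an adjusted p of 0.0984 in edgeR's test. Exons of the antisense gene RCC2-AS1, which had 0 counts in all libraries, overlap 7.54% of the RCC2 exon bases. The intervals of RCC1 and RCC2 did not overlap, and the difference between both genes was not tested.

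**Figure D2:**
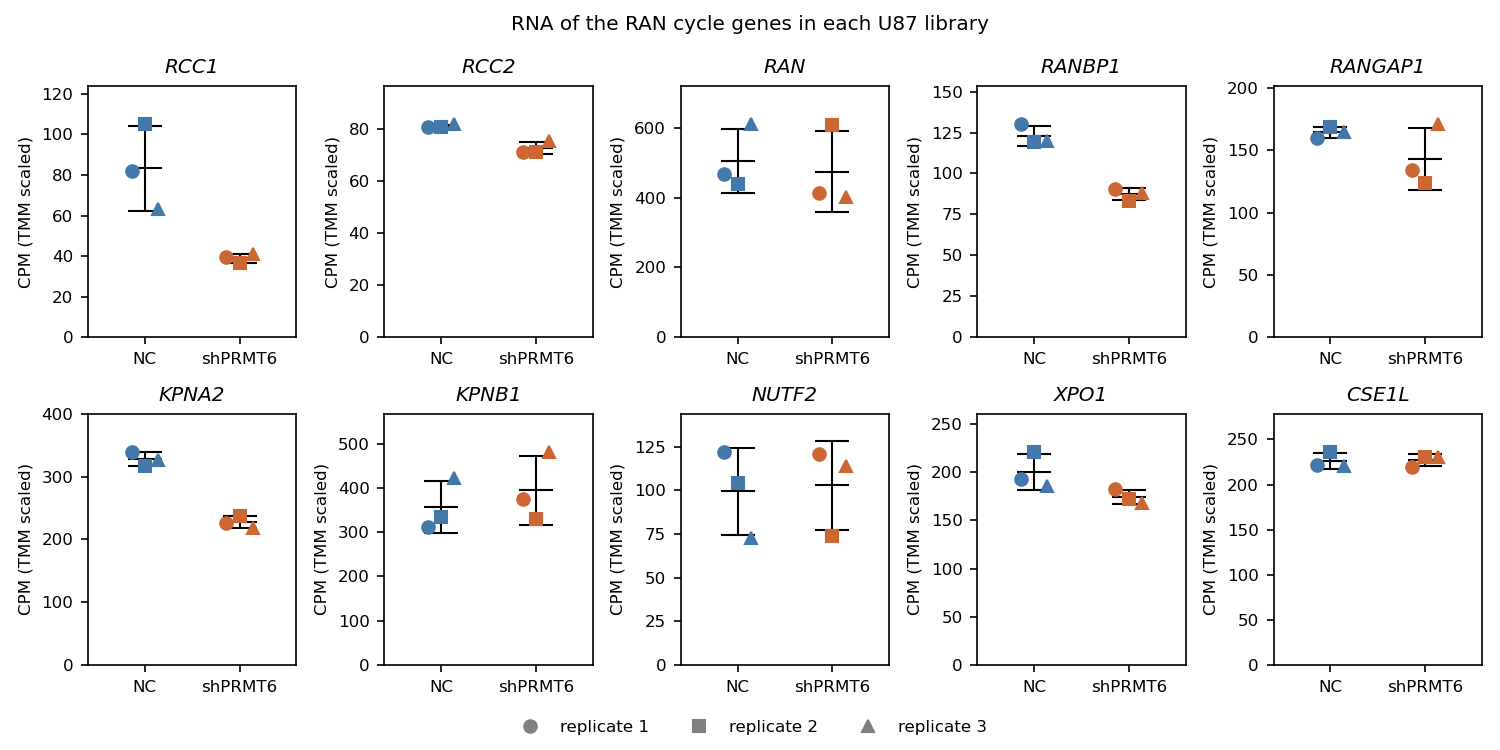
RNA level (y axis, CPM after TMM scaling, starting at 0 in each panel) of the 10 RAN cycle genes in every library, with symbols for replicates and black bars for the mean ± SD of 3 libraries. RCC1, RANBP1 and KPNA2 show a clear gap between NC and shPRMT6, whereas RAN, NUTF2 and KPNB1 vary more within a group than between groups.

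RAN (ENSG00000132341, chr12:130871879-130877678, plus strand) had the highest FPKM of the 10 (counts scaled to gene length) in the mean of all 6 libraries. In NC alone KPNA2 was at 93.1 ± 2.65 FPKM and RAN at 91.2 ± 17.5 FPKM, and in shPRMT6 they were at 64.8 ± 2.51 and 86.3 ± 21.0 FPKM (SD, n = 3). In CPM the level of RAN was 467, 439 and 611 CPM in NC and 413, 610 and 403 CPM in shPRMT6. NC replicate 3 and shPRMT6 replicate 2 were high at nearly the same value, and the other 4 libraries lay between 403 and 467 CPM. The log2 fold change of -0.09 (SE 0.197, 95% interval -0.56 to 0.38, adjusted p = 0.807 in edgeR's test) therefore leaves room for a change of either sign. Leaving out shPRMT6 replicate 2 gave -0.31 and leaving out NC replicate 3 gave 0.07, and neither value passed the test.

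NUTF2 (chr16:67846732-67872567), the import carrier of RAN-GDP, was split in the opposite way. Its level was 122, 104 and 72.8 CPM in NC and 121, 73.7 and 114 CPM in shPRMT6. The lowest NUTF2 values were in the same 2 libraries that had the highest RAN, 1 from each group. NUTF2 had a log2 fold change of 0.04 (SE 0.245, 95% interval -0.54 to 0.63, adjusted p = 0.926 in edgeR's test), and leaving out NC replicate 3 gave -0.14 where leaving out shPRMT6 replicate 2 gave 0.23. The total counts of NC replicate 3 and shPRMT6 replicate 2, 61862219 and 61805330, were within the range of the others, and what sets these libraries apart in RAN and NUTF2 was not tested.

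**Figure D3:**
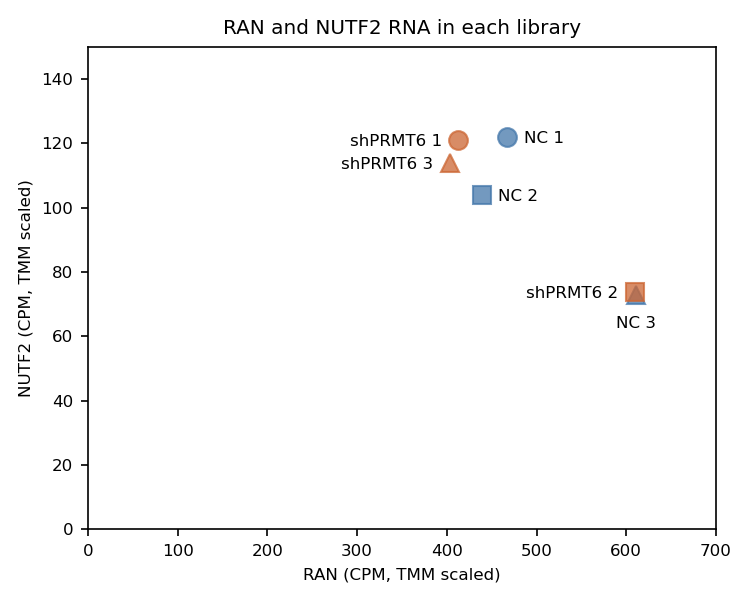
NUTF2 (y axis) against RAN (x axis), both as CPM after TMM scaling, with 1 point per library in blue for NC and orange for shPRMT6. NC replicate 3 and shPRMT6 replicate 2 lie almost on top of each other at 611 and 610 CPM of RAN and 72.8 and 73.7 CPM of NUTF2, apart from the other 4 libraries.

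RANBP1 (ENSG00000099901, chr22:20115938-20127357, plus strand) binds RAN-GTP at the cytoplasmic side of the pore and raises the activity of RANGAP1. RANBP1 was 130, 119 and 120 CPM in NC and 90.3, 83.3 and 88.2 CPM in shPRMT6. Replicates were close in both groups and the groups were well separated (123 ± 6.14 and 87.3 ± 3.58 CPM, SD, n = 3). This gave a log2 fold change of -0.50 (SE 0.0653, 95% interval -0.65 to -0.34, adjusted p = 0.00445 in edgeR's test). Of its exon bases 8.5% lie opposite TRMT2A, and 10.33% of its 75-base stretches also occur in other genes. TRMT2A, named after its values were seen, had a log2 fold change of 0.07 (adjusted p = 0.724 in edgeR's test).

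RANGAP1 (chr22:41245611-41286251, minus strand), the GTPase-activating protein of RAN, was 160, 169 and 165 CPM in NC and 134, 124 and 171 CPM in shPRMT6. The shPRMT6 replicate 3 was the highest of all 6 libraries and the other 2 shPRMT6 libraries were the lowest. RANGAP1 did not pass the test (log2 fold change -0.21, SE 0.122, 95% interval -0.50 to 0.08, adjusted p = 0.291 in edgeR's test), but without shPRMT6 replicate 3 its log2 fold change was -0.36 with an adjusted p of 0.0391.

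The balance of exchange factor RNA to GTPase-activating protein RNA was read from the deposited FPKM, which divides counts by a fixed length for each gene. How these lengths were set is not given, and the size of any FPKM ratio or share between genes depends on them. The RCC1 to RANGAP1 ratio of FPKM was 0.803, 0.981 and 0.600 in NC and 0.464, 0.463 and 0.377 in shPRMT6. The ratio was lower in every shPRMT6 library (0.794 ± 0.191 against 0.435 ± 0.0497, SD, n = 3, p = 0.1 in the two-sided exact permutation test). The difference of -0.360 was -0.267 without NC replicate 2 and -0.229 with counts in place of FPKM. RAN per RCC1, again as a ratio of FPKM, was 4.75, 3.47 and 8.09 in NC and 8.74, 14.0 and 8.20 in shPRMT6. All shPRMT6 libraries were above all NC libraries, though NC replicate 3 came within a small margin of shPRMT6 replicate 3 (5.43 ± 2.39 against 10.3 ± 3.19, SD, n = 3, p = 0.1 in the same exact test). This difference of 4.88 was 3.04 without shPRMT6 replicate 2. Both ratios contain RCC1, so they are not evidence separate from its fall, and the proteins were not analysed.

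KPNA2 (ENSG00000182481, chr17:68035519-68046842, plus strand), importin alpha-1, recognises classical nuclear localization signals and links cargo to KPNB1. KPNA2 was 339, 317 and 327 CPM in NC and 226, 237 and 218 CPM in shPRMT6. The groups were far apart relative to their spread (328 ± 10.7 and 227 ± 9.16 CPM, SD, n = 3). Its log2 fold change was -0.53 (SE 0.0564, 95% interval -0.67 to -0.40, adjusted p = 0.00215 in edgeR's test), the smallest p of the 10. Of its 75-base stretches, 5.85% are also found in pseudogenes and other genes.

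KPNB1 (chr17:47649476-47685505), importin beta-1, which carries importin alpha with its cargo through the pore and is released by RAN-GTP, was 312, 334 and 423 CPM in NC and 375, 329 and 481 CPM in shPRMT6. The groups overlapped and replicate 3 was the highest in both. Its log2 fold change was 0.15 (SE 0.170, 95% interval -0.26 to 0.56, adjusted p = 0.603 in edgeR's test).
CSE1L (chr20:49046246-49096960) returns importin alpha to the cytoplasm as an export complex with RAN-GTP. CSE1L was 222, 236 and 220 CPM in NC and 219, 230 and 231 CPM in shPRMT6, so that both groups covered nearly the same range. Its log2 fold change was 0.0011 (SE 0.0557), and the 95% interval of -0.13 to 0.13 bounds the change more tightly than for RAN, KPNB1 or NUTF2.

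The 7 importin alpha genes did not move in 1 direction. At an adjusted p under 0.05 in edgeR's test KPNA2, KPNA3 and KPNA4 were lower and KPNA1 and KPNA6 higher, against the 9.06% and 9.51% of all genes given above. KPNA3, importin alpha-4, fell from 46.1, 50.1 and 48.1 CPM in NC to 27.5, 29.3 and 28.8 CPM in shPRMT6. Its groups were far apart, and its log2 fold change of -0.75 (SE 0.0720, adjusted p = 0.00164 in edgeR's test) was the largest of the family in size. KPNA1, importin alpha-5, rose from 98.3, 102 and 101 CPM to 133, 132 and 132 CPM. This was a log2 fold change of 0.40 (SE 0.0513, adjusted p = 0.00392 in edgeR's test), and 16.29% of the exon bases of KPNA1 lie opposite WDR5B-DT. KPNA6, importin alpha-7, was 108, 115 and 122 CPM in NC and 137, 145 and 151 CPM in shPRMT6, with no overlap. The rise of KPNA6 (log2 fold change 0.33, SE 0.0706, adjusted p = 0.0228) lost its call without NC replicate 1 (adjusted p = 0.0555) and with either shPRMT6 replicate 2 or 3 left out (0.082 and 0.0818), all by edgeR's test.

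KPNA4, importin alpha-3, was 166, 177 and 175 CPM in NC and 149, 146 and 145 CPM in shPRMT6. The groups were separate, but its log2 fold change of -0.24 (SE 0.0533, adjusted p = 0.0264) lost its call in 6 of 15 alternatives. Leaving out NC replicate 3 gave an adjusted p of 0.0847 in edgeR's test, and leaving out shPRMT6 replicates 1, 2 and 3 in turn gave 0.0815, 0.102 and 0.0971. KPNA5, importin alpha-6, was low in both groups (5.72 ± 0.485 and 5.76 ± 0.984 CPM, SD, n = 3) and did not pass (log2 fold change 0.01, adjusted p = 0.970 in edgeR's test). KPNA7 had 4 counts in shPRMT6 replicate 2 and 0 in the other 5 libraries, and it was not tested.

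Summed over these genes as FPKM, importin alpha RNA was 141, 140 and 144 in NC and 113, 117 and 112 in shPRMT6, which is lower in every shPRMT6 library (142 ± 2.13 against 114 ± 2.4, SD, n = 3, p = 0.1 in the exact permutation test). KPNA2 made up 67.4%, 64.6% and 65.3% of that sum in NC and 57.3%, 57.9% and 55.7% in shPRMT6. Its share stayed the largest but was lower in every shPRMT6 library, by -8.83 percentage points on average (65.8% ± 1.5 and 56.9% ± 1.15, SD, n = 3, p = 0.1 in the exact test). The share of KPNA1 was 7.03% ± 0.218 in NC and 11.6% ± 0.282 in shPRMT6, and that of KPNA6 was 9.18% ± 0.576 and 14.4% ± 0.792 (SD, n = 3, each p = 0.1 in the exact test). KPNA3 went from 6.77% ± 0.356 to 5.02% ± 0.131 (p = 0.1), while KPNA4, at 11% ± 0.471 and 11.6% ± 0.327, overlapped between groups (p = 0.2, same exact tests, SD, n = 3). These shares are parts of the same sum, so a lower KPNA2 part by itself raises the shares of the others. The tests on the sum and on the shares are therefore not separate evidence.

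**Figure D4:**
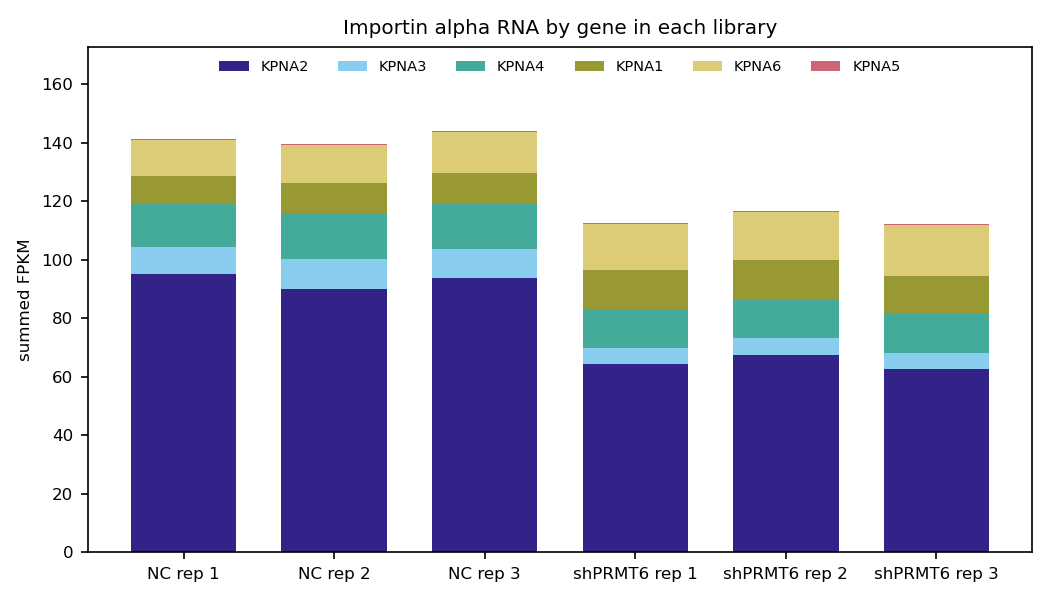
Deposited FPKM of 6 importin alpha genes stacked to their sum (y axis) in each of the 6 libraries. The KPNA2 part at the bottom is smaller in the 3 shPRMT6 libraries, and the KPNA1 and KPNA6 parts are larger.

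XPO1 (chr2:61477849-61538626, minus strand), the main exporter of proteins with leucine-rich export signals, was 193, 221 and 186 CPM in NC and 183, 172 and 168 CPM in shPRMT6. Every shPRMT6 library was lower, with a narrow gap between NC replicate 3 and shPRMT6 replicate 1. The log2 fold change of -0.20 (SE 0.0815, 95% interval -0.39 to -0.002) had an unadjusted p of 0.0483 and an adjusted p of 0.150 in edgeR's test.

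Over all 6 libraries the mean FPKM was 88.7 for RAN, 78.9 for KPNA2, 50.3 for CSE1L and 41.6 for KPNB1. It was 23.1 for NUTF2, 21.2 for RANGAP1, 19.2 for RANBP1, 15.9 for RCC2, 13.4 for XPO1 and 13.3 for RCC1. These means pool both groups and depend on the gene lengths used for FPKM. The ranges over libraries were separate only between KPNA2 and CSE1L and between KPNB1 and NUTF2, so the order of the other neighbours is not beyond their spread.

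Further lists of transport genes were compared in the same edgeR fit, and these lists, like the 10 genes, were drawn up with earlier results of these data known. Leaving out the 10 genes, 25 of 85 tested transport and spindle genes were called lower and 5 higher, with a median log2 fold change of -0.15, where 9.06% of all genes tested were called lower and 9.51% higher. With shPRMT6 replicate 1, 2 or 3 left out, 13, 14 and 16 genes were called lower. With shPRMT6 replicate 2 or 3 left out, 3 genes were called higher in each case. For fits with 1 library left out, here and below, the share of all genes called is not given. A loss of calls in these lists therefore cannot be told from a loss over all genes.

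The list of 13 importins of the importin beta family held KPNB1 and also SNUPN, an adaptor that is not of that family. In this list TNPO2, a transportin, was lower (log2 fold change -0.71, adjusted p = 0.00156) and IPO13 higher (0.45, adjusted p = 0.00604, both from edgeR), while 11 were not called. With shPRMT6 replicate 2 or 3 left out 2 were called lower, and with NC replicate 2 left out 2 were called higher. TNPO2 was 110, 119 and 111 CPM in NC and 67.5, 66.4 and 73.4 CPM in shPRMT6. Of 7 tested exportins, XPO1 and CSE1L among them, XPOT, which exports tRNA, was lower (log2 fold change -0.25, adjusted p = 0.0132 in edgeR's test). Its adjusted p was 0.0618 and 0.0688 when shPRMT6 replicate 1 or 2 was left out. The median log2 fold change was 0.04 for the importins and -0.07 for the exportins, close to the -0.01 of all genes.

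Nucleoporins, the proteins of the pore, had 10 of 31 genes lower and 1 higher (9.06% and 9.51% of all genes), and 25 of 31 were below 0 with a median of -0.18. The count of lower nucleoporins fell whichever library was left out, and each such fit also had fewer replicates. It was 2, 2 and 3 with shPRMT6 replicate 1, 2 or 3 left out, and 5, 7 and 5 with NC replicate 1, 2 or 3 left out. With NC replicate 2 left out, 2 nucleoporins were called higher. NDC1, which anchors the pore in the membrane, was 84.3, 86.7 and 84.1 CPM in NC and 56.6, 52.2 and 54.5 CPM in shPRMT6 (log2 fold change -0.64, adjusted p = 0.00158 in edgeR's test). SEH1L of the Y complex was also lower (-0.56, adjusted p = 0.0242, edgeR), and SEC13, which serves both that complex and COPII vesicles, was higher (0.41, adjusted p = 0.00957, edgeR). The SEH1L call was lost without NC replicate 1 (adjusted p = 0.0675), NC replicate 3 (0.0825) or any shPRMT6 replicate (0.0728, 0.0828 and 0.0825, edgeR). The other 8 lower nucleoporins were NUP35, NUP37, NUP88, NUP98, NUP107, NUP155, POM121 and POM121C. Among 16 mRNA export genes, which use the pore without RAN, THOC6 (log2 fold change -1.24, adjusted p = 0.00267) and DDX39A (-0.46, adjusted p = 0.0205) were lower and GLE1 was higher (0.43, adjusted p = 0.0160, all from edgeR). Their median was -0.08. The DDX39A call was lost without NC replicate 1 (adjusted p = 0.0534, edgeR) and the GLE1 call without any of the shPRMT6 replicates (0.063, 0.0545 and 0.0561).

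Spindle and nuclear envelope factors that RAN-GTP frees from importins had the lowest median of the transport and spindle lists. Of 13 such genes 8 were called lower and none higher (9.06% and 9.51% of all genes), with a median log2 fold change of -0.66. NUSAP1, a microtubule-binding protein, was 108, 109 and 105 CPM in NC and 52.4, 54.2 and 53.0 CPM in shPRMT6 (log2 fold change -1.01, adjusted p = 0.000322 in edgeR's test), although 62.16% of its exon bases are shared with another gene of the same strand. KIF22, a chromosome-arm kinesin, was 96.5, 82.4 and 89.1 CPM in NC and 45.2, 48.1 and 44.4 CPM in shPRMT6 (-0.96, adjusted p = 0.00114 in edgeR's test). DLGAP5, HMMR, KIFC1, LMNB1, LMNB2 and TPX2 were the other lower genes of the list.

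KPNA2, RCC1 and RANBP1 moved beside genes of dividing cells. Of 16 genes of G2 and M phase 13 were lower and none higher, with a median log2 fold change of -0.80, and of 16 S phase genes 12 were lower and none higher, with a median of -0.62, beside 9.06% lower and 9.51% higher among all genes. With NC replicate 2 left out, 1 gene of G2 and M phase was called higher. CCNB2, a cyclin of mitosis, went from 60.6 ± 3.72 to 26.4 ± 0.865 CPM, and MCM2, a subunit of the replicative helicase, from 119 ± 9.44 to 65.7 ± 6.87 CPM (SD, n = 3). In RNA of whole cultures, fewer cells in a phase and less RNA per cell cannot be told apart, and the part of cell cycle phase in the fall of RCC1, RANBP1 and KPNA2 was not tested.

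The genes whose level followed RCC1 most closely over the 6 libraries were sought among 10051 genes whose average log2 CPM was 3 or more. They were DNAJA1 (Pearson r = 0.9975), NUP155 (0.9965) and EPB41L2 (0.9961), which all fell in shPRMT6 and had their highest level in NC replicate 2. Like RCC1, the nucleoporin NUP155 was highest in that library, with 56.5, 60.4 and 51.2 CPM in NC and 41.7, 40.0 and 42.3 CPM in shPRMT6. For RAN they included PHF11 (0.9917) and VKORC1L1 (0.9775). VKORC1L1 had the pattern of RAN in a stronger form, with 21.9, 26.3 and 73.8 CPM in NC and 18.1, 63.1 and 17.1 CPM in shPRMT6. For KPNA2 they were ESYT1 (0.9998), TNFAIP8L1 (0.9993) and SETD3 (0.9992). All points of these comparisons share their libraries and the group difference, and the highest of many coefficients over 6 libraries is a description.

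The methods list PRMT6 shRNAs numbered 1 to 3, and matches of their antisense strands (bases 2 to 8) to 3′ UTRs were counted. RANBP1 (3′ UTR of 1410 bases) and KPNA2 (302 bases) held no such match to any of these shRNAs, and a short 3′ UTR has less room for a match. RCC1 held 1 match, to shRNA 3, as did 20.31% of the 19215 genes with a 3′ UTR, and none to the other shRNAs. KPNB1, which did not pass the test, held 1, 2 and 1 matches to shRNAs 1, 2 and 3, where 13.53%, 15.51% and 20.31% of genes held at least 1. RAN and NUTF2 each held 1 match, to shRNA 3, XPO1 held 1, to shRNA 1, and RCC2, RANGAP1 and CSE1L held none.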

How the data were processed

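RNA of 3 NC and 3 shPRMT6 libraries of U87 cells was measured, with groups from the sample labels. The table the authors deposited holds a raw count and an FPKM value for each gene and library, and the submitters' processing notes name HISAT2, HTSeq 0.13.5 and GRCh38. The annotation release, the strand setting and the FPKM tool are not given in the sources used here, and the labels name Trizol where the methods name an RNeasy kit. FPKM was tested to be the count over a fixed length for each gene (99.735% of values within 2% for 13071 genes). Symbols were matched for 60401 of 60612 identifiers, and positions and exon overlaps were taken from GENCODE on GRCh38. Without a known strand setting, reads of overlapping antisense genes cannot be told apart.

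Counts were tested with edgeR 4.0.16 in R 4.3.3 (quasi-likelihood test, TMM factors from 0.992 to 1.01, its filter on low counts, Benjamini-Hochberg adjustment over 18106 genes, called at an adjusted p under 0.05, no block). Values are TMM-scaled CPM with the SD as error. Ratios and shares of FPKM were tested by a two-sided exact permutation test (Python 3.11.15, SciPy 1.17.1). Alternatives were DESeq2 1.42.0, other scaling and filters, a replicate block, limma 3.58.1 on log2 FPKM (pseudocount 1 or 0.1 over genes whose mean FPKM was 1 or more, and pseudocount 1 over all), an adjusted p under 0.01, counts in place of FPKM for ratios, and each library left out in turn. The fits were tested on simulated data.

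The 10 genes and all lists were chosen with earlier results of these data known. Named are PRMT6, the 10 genes, the importin alphas, up to 2 genes with the largest rise and 2 with the largest fall per list among called genes without overlap, and the 3 genes most like RCC1, RAN and KPNA2. Other genes are named from the counts they belong to or after their values were seen. The values of 2 genes under this rule are not reported here. The proteome was not analysed here. Same-numbered libraries of both groups did not deviate together (r from -0.0301 to -0.0171), so the numbers were not taken as pairs.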

Additional observations from a re-analysis of the deposited data

How the results depend on the processing

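RCC1, RANBP1 and KPNA2 were lower and past an adjusted p of 0.05 in each of 15 alternatives run (highest adjusted p 0.0419, 0.026 and 0.0225), the count of lower RAN cycle genes was 3 or, without shPRMT6 replicate 3, 4, and none was called higher. The threshold of the methods was passed by 0 genes with limma on log2(FPKM + 1), with or without the filter, where RCC1 was at -0.98, and by 0 to 1 genes with 1 library left out. That scale understates changes of low genes. Among the other transport and spindle genes the count of lower genes was 14 with the replicate block (4 of them nucleoporins), 12 at an adjusted p under 0.01 and 13 to 21 with 1 library left out, and that of higher genes was 3 at an adjusted p under 0.01 and 3 to 7 with 1 library left out. PRMT6 was at -0.88 with the replicate block (adjusted p = 0.0803, edgeR), -0.47 with limma on unfiltered log2(FPKM + 1) (adjusted p = 0.0578), and -1.0 to -0.73 with 1 library left out. The block uses up degrees of freedom, and among the RAN cycle genes it changed no call. The cause of the other shifts was not tested.

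Genes near 0 changed sign. With 1 library left out, RAN ranged from -0.31 to 0.07, KPNB1 from -0.02 to 0.29, NUTF2 from -0.14 to 0.23, CSE1L from -0.02 to 0.03 and KPNA5 from -0.13 to 0.11. CSE1L was at -0.0031 on library totals alone and -0.01 with upper quartile factors. None of these passed the test. With 3 libraries a group, intervals as wide as those of RAN and NUTF2 do not exclude moderate changes.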

Other observations

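In several transport genes 1 or more libraries stood apart from the rest, and all these genes were noticed after their values were seen. IPO4, an importin for ribosomal proteins and histones, was 28.9, 31.1 and 34.9 CPM in NC and 21.6, 2.66 and 21.1 CPM in shPRMT6. Its shPRMT6 replicate 2 stood far below the rest, 69.3% of its exon bases are shared with another gene of the same strand, and its log2 fold change of -1.06 did not pass (adjusted p = 0.324 in edgeR's test). TPR, the filament protein of the nuclear basket, was 125, 215 and 131 CPM in NC and 134, 150 and 155 CPM in shPRMT6. AHCTF1, which starts pore assembly on chromatin, was 47.7, 98.9 and 46.5 CPM in NC and 61.4, 80.1 and 47.5 CPM in shPRMT6. Both were highest in NC replicate 2, the library in which RCC1 was also highest, and neither passed edgeR's test (adjusted p = 0.779 and 0.960). What sets these libraries apart was not tested.

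CENPT, which lies opposite 2.82% of the exon bases of NUTF2, was 38.1 to 46.4 CPM in NC and 45.8 to 66.4 CPM in shPRMT6. Its lowest value in each group was in the library with the lowest NUTF2, and it did not pass the test (log2 fold change 0.43, adjusted p = 0.106 in edgeR's test). CENPT was also chosen after its values were seen.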
